A study of Mus musculus with 18 samples.

Results

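Claudins are the tetraspan membrane proteins that form the strands of the tight junction, and the transcripts of 10 of them were followed here in cultured mouse alveolar type 2 cells. The members were Cldn1, Cldn2, Cldn3, Cldn4, Cldn6, Cldn7, Cldn8, Cldn12, Cldn18 and Cldn23, a list made by gene name, and they were found by matching the gene identifiers of the deposited tables to symbols in an annotation of the GRCm38 mouse genome. They were 10 of the 52636 genes listed, and all 10 passed the filter on low counts.

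The libraries came from lung alveolar type 2 cells, the surfactant-producing cells that also act as progenitors of the flat alveolar type 1 cells. All 18 libraries, 3 in each of 6 groups, were from cells kept with LGK974, a porcupine inhibitor that blocks the secretion of the cells' own Wnt proteins. The reference group (CHIR) received LGK974 with CHIR99201, which the labels describe as a Wnt agonist and in which the cells had been grown for 19 days. A pair of groups had CHIR99201 removed for 24 h or for 48 h, with LGK974 kept. In the other groups CHIR99201 was removed and replaced, beside LGK974, with Wnt, with an Fzd5 agonist or with an Fzd6 agonist, agents directed at receptors of the Frizzled family. The labels give 8 to 12 h for the treatments and do not say how long the cells of the ligand groups were without CHIR99201. They give no strain, age or genotype. Nothing in them says that the 3 libraries of a group are separate cultures or animals, and the p-values speak only of the spread among these libraries. Which transcripts follow Wnt signalling in these cells is the question that the groups address.

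Claudins differ in what they let pass between cells. Most, among them Cldn1, Cldn3, Cldn4, Cldn7, Cldn8 and Cldn18, are mainly counted as sealing claudins, whereas Cldn2 forms a pore for cations and water. In the alveolus Cldn3, Cldn4 and Cldn18 are the claudins best known in the epithelium. Cldn18 is the one for which mice lacking it are known for altered alveolar barrier and epithelial growth, and its lung transcript starts at a promoter of its own, apart from the one that the stomach uses.

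Cldn18, Cldn3 and Cldn4 are shown by the 250 bases before their annotated starts. Cldn18 was chosen because it has more than 1 start and had the largest fold changes among the members above 1 CPM per kb. Cldn3 was chosen because it had the highest median level per kb, and Cldn4 because it is the neighbour of Cldn3. Sequences are RefSeq's on GRCm38.p6, 5′ to 3′ on the strand of the gene. Capitals mark CTTTGA, a form of the core letters bound by the Wnt effectors of the TCF and LEF family, or GGGCGG, a GC box, on either strand. Other forms of the TCF and LEF letters were not searched for, so a window without CTTTGA may still hold such letters.
Cldn18, upstream start, chr9:99717268-99717517, minus strand: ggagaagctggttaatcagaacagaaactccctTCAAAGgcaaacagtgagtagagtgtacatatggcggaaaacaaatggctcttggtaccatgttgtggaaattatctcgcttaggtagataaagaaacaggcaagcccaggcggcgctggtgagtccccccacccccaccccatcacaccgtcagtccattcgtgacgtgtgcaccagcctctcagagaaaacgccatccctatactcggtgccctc
Cldn18, downstream start, chr9:99710064-99710313, minus strand: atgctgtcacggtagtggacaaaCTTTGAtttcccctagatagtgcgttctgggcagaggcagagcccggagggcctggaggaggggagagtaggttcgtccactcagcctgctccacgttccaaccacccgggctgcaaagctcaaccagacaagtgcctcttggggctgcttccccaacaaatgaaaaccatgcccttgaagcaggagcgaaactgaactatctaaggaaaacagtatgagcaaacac
Cldn3, chr5:134985964-134986213, plus strand: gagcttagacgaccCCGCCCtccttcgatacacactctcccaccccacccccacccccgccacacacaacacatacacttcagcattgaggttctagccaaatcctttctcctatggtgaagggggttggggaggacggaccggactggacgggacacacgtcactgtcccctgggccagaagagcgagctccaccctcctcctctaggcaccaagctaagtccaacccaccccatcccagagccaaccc
Cldn4, chr5:134946935-134947184, minus strand: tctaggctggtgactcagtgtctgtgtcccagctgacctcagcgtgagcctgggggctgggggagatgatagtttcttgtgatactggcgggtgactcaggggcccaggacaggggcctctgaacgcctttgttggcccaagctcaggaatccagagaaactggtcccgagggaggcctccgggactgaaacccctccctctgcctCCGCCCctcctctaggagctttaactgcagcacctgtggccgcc
The Cldn18 windows belong to starts that lie 7204 bases apart, and each held CTTTGA once. In the upstream window the letters lay at −217 from the start and read on the opposite strand, as TCAAAG. In the downstream window they lay at −227 on the strand of the gene. Of all 32851 promoter windows of this length, 13.8% held CTTTGA, so a match is common. The counts sum reads over both Cldn18 starts, and the transcripts from each were not told apart. Cldn3 held GGGCGG at −236 and Cldn4 held it at −44, both on the opposite strand as CCGCCC, against 32.7% of all windows. The starts of Cldn3 and Cldn4 are 39280 bases apart on chromosome 5, and the genes are read in opposite directions. A table entry was found for 8 of the 10 members, with 12 windows, and Cldn8 and Cldn23 were not among them. Of the other windows, those of Cldn1 and Cldn6, 1 of the 2 of Cldn7 and 2 of the 3 of Cldn12 held GGGCGG. These 2 Cldn12 windows overlap, and the matches, at −73 and −13 from their starts, are the same bases. The Cldn6 window also held CTCAAG (core letters bound by Nkx2-1, in 13.3% of all windows). That of Cldn2 held TATAAA, a core promoter element, at −35 (12.4% of all windows). AACCNGTT, bound by Grainyhead-like factors and in 1.8% of all windows, was not in the 12. These matches describe letters, and binding was not tested.

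Levels are given in CPM, counts scaled to the size of each library. Total gene counts were 31509607 to 52030066 per library. On these totals 3 counts, the limit that a count of 0 allows, corresponded to 0.0577 to 0.0952 CPM. A group of 4 libraries stood apart, with a median correlation of log2 CPM with the other libraries of 0.782 in 24 h withdrawal 2, 0.927 in CHIR 1, 0.945 in CHIR 3 and 0.950 in Fzd6 agonist 1, against 0.966 to 0.982 in the other 14. The summed alveolar type 2 markers (11 genes) were at 68357 to 95724 CPM in the 14 libraries and at 123890 to 166925 CPM in the 4, with Sftpc, the surfactant protein C gene, at 36668 to 53788 and 93166 to 144814 CPM. Markers of endothelial cells (5 genes, at most 0.143 CPM summed) and mesenchymal cells (6 genes, at most 0.714 CPM) were near 0. Summed basal markers reached 0.105 CPM in the 14 libraries and 12.6 CPM in the 4, and the airway gene Scgb1a1 was at 50.7 CPM in CHIR 3, 79.8 in Fzd6 agonist 1, 38.6 in 24 h withdrawal 2 and at most 0.947 CPM elsewhere. Club and secretory markers (8 genes) summed to 47.1 to 658 CPM in the 14 and 46.5 to 864 in the 4, ciliated markers (5 genes) to 2.76 to 23.0 and 0.141 to 2.76, and gastric and gut markers (7 genes) to 0.437 to 2.78 and 1.15 to 15.4. Haematopoietic markers (6 genes) summed to 233 to 1490 CPM and 1148 to 6164 CPM, nearly all of it Lyz1. In each library 3 or 4 of these 6 genes had no counts. Reads of Lyz1 may be shared with the alveolar type 2 marker Lyz2, and the source of this signal was not tested. Tests are therefore given on all 18 and on these 14, and without 24 h withdrawal 2 alone where that gave a call. In the fit of 14 the CHIR group is CHIR 2 alone, and its spread is taken to be that of the other groups. Most libraries that a library was correlated with belong to other groups. A difference between CHIR and those groups therefore also lowers the values of CHIR libraries, and CHIR 2 was at 0.966.

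Per kb of gene length, Cldn3 carried most of the claudin transcripts in every library. To compare genes, CPM were divided by the length in kb that the tables give each gene, and each claudin's share of the sum over the 10 was taken. Cldn3 held a median of 69.0% of that sum over the 18 libraries (56.6% to 79.6%), at a median of 1110.1 CPM per kb. Cldn7 held 14.7% (12.7% to 19.2%) and Cldn18 13.2% (1.05% to 25.9%), at medians of 233 and 219.7 CPM per kb. The order of Cldn7 and Cldn18 was not the same in every library, since their ranges overlap. Cldn12 and Cldn4 followed at medians of 23.2 and 19.1 CPM per kb, with shares of 1.42% (0.586% to 3.26%) and 1.14% (0.811% to 5.93%), and these also overlap. Cldn8 stood at a median of 3.01 CPM per kb. The remaining 4 were lower still, with medians of 0.546 CPM per kb for Cldn23, 0.401 for Cldn1, 0.184 for Cldn6 and 0.145 for Cldn2, and each had overlapping ranges with its neighbour in this order. Cldn3, Cldn4, Cldn7 and Cldn18 together made up 96.3% to 99.4% of the sum in all 18 libraries. These shares depend on the single length given for each gene, also for Cldn18 with its separate starts. In CPM not divided by length, Cldn18 exceeded Cldn3 in 48 h withdrawal 1 and 2 and in Fzd5 agonist 1. An exon of Cldn3 overlaps the antisense gene Wbscr25 and the tables do not say whether strand was used in counting, so part of its count may belong to that gene.

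**Figure D1:**
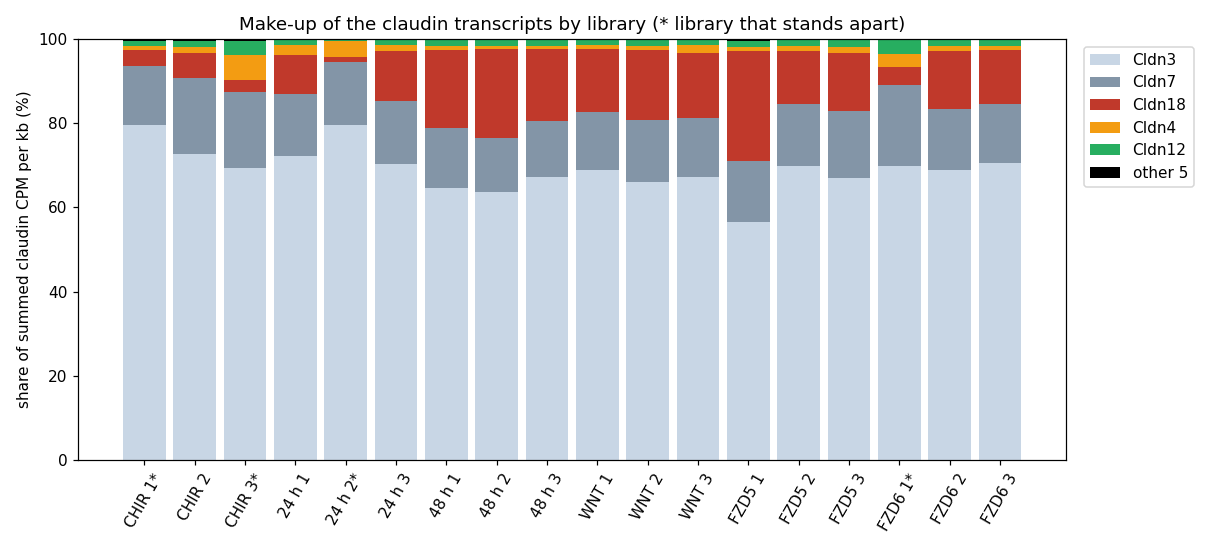
Share (%) of the summed claudin CPM per kb held by each claudin, with 1 stacked bar per library, 3 libraries in each of the 6 groups, and an asterisk on the 4 libraries that stand apart. Cldn3 fills 56.6% to 79.6% of each bar, and the Cldn18 segment runs from 1.05% in 24 h withdrawal 2 to 25.9% in Fzd5 agonist 1.

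The summed claudin level was 1088 CPM per kb in CHIR 3, 1135 in Fzd6 agonist 1 and 1163 in 24 h withdrawal 2, and 1560.2 to 1902 in the other 15 libraries. The 3 low libraries are among the 4 that stand apart, and CHIR 1, also among them, was at 1585. In bulk RNA, fewer cells that make a claudin and less of its RNA per cell cannot be told apart.

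Over all 18 libraries and 12 comparisons, edgeR's quasi-likelihood test called none of the 120 member differences at a Benjamini-Hochberg adjusted p under 0.05 (5 were under 0.05 before adjustment). Of the same 120, DESeq2 called 3 and limma voom with library quality weights called 11. edgeR without 24 h withdrawal 2 alone called 5, namely Cldn18 against CHIR after 48 h, with Wnt and with the Fzd5 agonist, and Cldn8 against CHIR after 48 h and with Wnt. No omission of another of the 18 libraries gave a call. In that fit of 17 libraries 14.5%, 12% and 8.84% of all genes were called against CHIR after 48 h, with Wnt and with the Fzd5 agonist. edgeR on the 14 libraries called 14, and these concerned Cldn18, Cldn8, Cldn7, Cldn4 and Cldn2. Where DESeq2 called a member, it called 8.23% of all genes tested after 48 h against CHIR, 6.77% with Wnt and 4.87% with the Fzd5 agonist. Where limma voom did, it called 6.69% and 5.55% for the first 2 of these comparisons, 19.9% for 48 h against 24 h of withdrawal, 20.5% and 22.5% for the Fzd5 and Fzd6 agonists against 48 h, and 21.3% and 22.3% for these agonists against Wnt. Fits of only the 2 groups compared called a member beside 0.711% of all genes for Wnt against CHIR, 13% for the Fzd5 agonist against 48 h and 13.1% for the Fzd5 agonist against Wnt.

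Cldn18, the claudin with its own lung promoter, was lower in all 3 CHIR libraries than in any library of the 48 h withdrawal, Wnt or Fzd5 agonist groups. It stood at 264, 421 and 146 CPM in CHIR 1, 2 and 3. After 24 h of withdrawal it stood at 769, 54.5 and 899 CPM, and after 48 h at 1322, 1630.0 and 1249.5 CPM. The 48 h libraries lay above all CHIR and 24 h libraries, while 24 h withdrawal 2 was below every CHIR library. With Wnt, Cldn18 was at 1193, 1161 and 1222 CPM. With the Fzd5 agonist it was at 1827, 879.9 and 963 CPM, and with the Fzd6 agonist at 209, 1070.2 and 995 CPM. The low Fzd6 agonist 1 library stood apart from its group and lay within the CHIR range.

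In group means Cldn18 was at 277 ± 138 CPM (SD, n = 3) in CHIR and 1401 ± 202 after 48 h. The log2 fold change was 2.34 (SE 0.76) with an edgeR adjusted p of 0.119 over the 18 libraries. Without 24 h withdrawal 2, which is in neither group, it was 2.34 (SE 0.51) with an edgeR adjusted p of 0.00832, all 3 CHIR libraries included. It was 1.75 (SE 0.39) with an edgeR adjusted p of 0.00912 over the 14. DESeq2 gave an adjusted p of 0.0170 and limma voom 0.0207 over all 18. For Wnt against CHIR the log2 fold change was 2.10 (SE 0.75, edgeR adjusted p 0.181) over the 18 libraries and 1.54 (SE 0.39, edgeR adjusted p 0.0167) over the 14, where DESeq2 and limma voom on the 18 gave 0.0432 and 0.0375. For the Fzd5 agonist it was 2.14 (SE 0.75, edgeR adjusted p 0.229) and 1.57 (SE 0.39, edgeR adjusted p 0.0281), with DESeq2 at 0.0484 and limma voom at 0.140. Without 24 h withdrawal 2 alone, Wnt gave 2.11 (SE 0.50, edgeR adjusted p 0.0150) and the Fzd5 agonist 2.14 (SE 0.50, edgeR adjusted p 0.0233). The 3 calls over the 14 libraries were kept when each library but the lone CHIR library was left out in turn, with adjusted p of at most 0.0170, 0.0355 and 0.0458 in edgeR. For the Fzd6 agonist against CHIR the log2 fold change was 1.45 (SE 0.74, edgeR adjusted p 0.770) over the 18 and 1.32 (SE 0.40, edgeR adjusted p 0.0795) over the 14. Neither fit called Cldn18 between 48 h and 24 h of withdrawal, where the log2 fold change was 1.29 (SE 0.73) and 0.76 (SE 0.28), with edgeR adjusted p of 0.372 and 0.105. The ligand groups and 48 h withdrawal were not told apart in Cldn18 by either fit. Against 48 h withdrawal its log2 fold change over the 14 libraries was −0.22 (SE 0.25) with Wnt, −0.18 (SE 0.25) with the Fzd5 agonist and −0.43 (SE 0.28) with the Fzd6 agonist, with edgeR adjusted p of 0.846, 0.702 and 0.384.

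**Figure D2:**
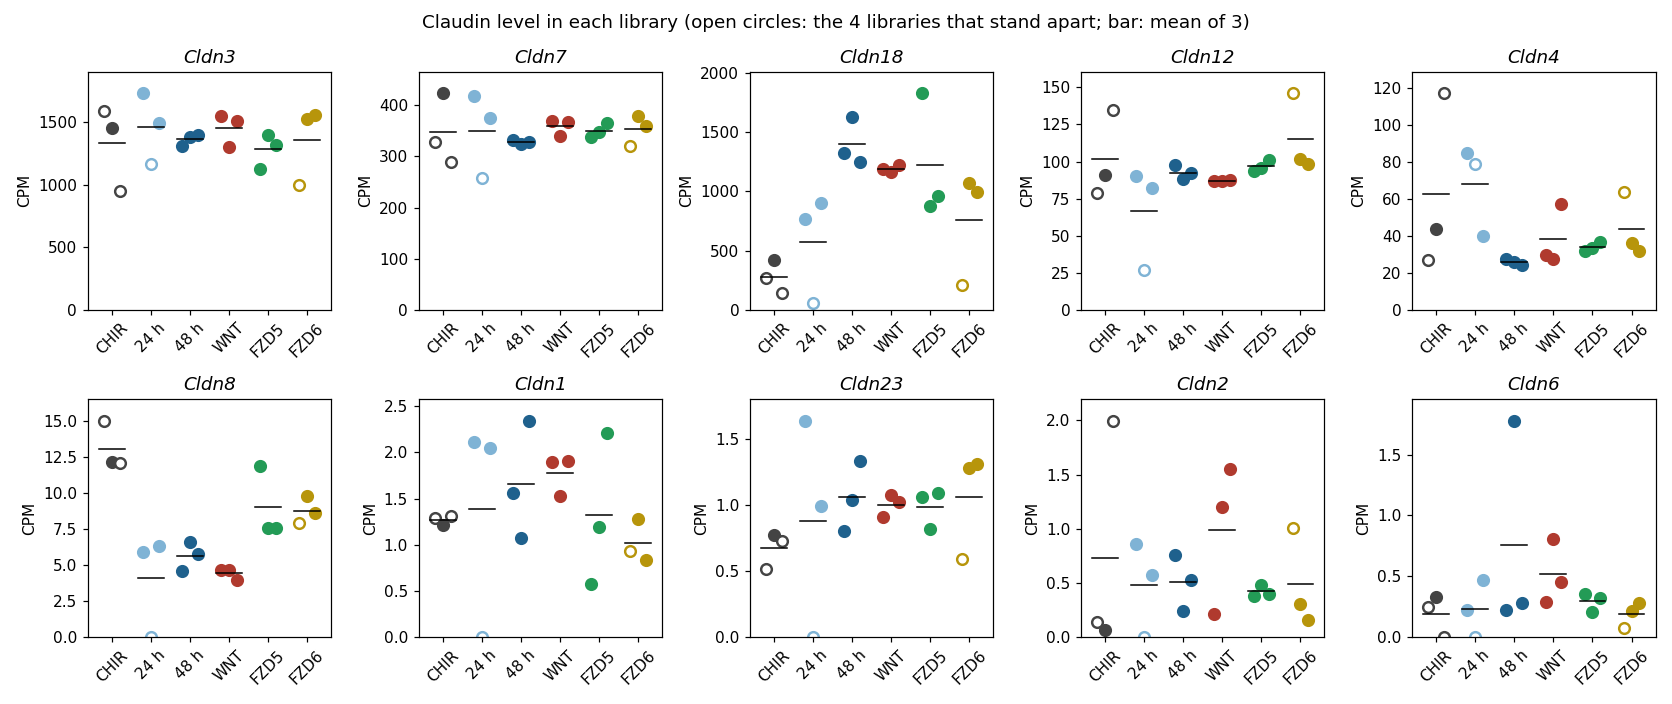
Level of each of the claudins in CPM, with its own linear axis per gene, 1 point per library and a bar at the mean of the 3 libraries of each group, with open circles for the 4 libraries that stand apart. Cldn18 lies between 146 and 421 CPM in CHIR and between 1249.5 and 1630.0 CPM after 48 h of withdrawal, while Cldn8 lies between 12.1 and 15.0 CPM in CHIR and at most at 11.8 CPM elsewhere.

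As a share of the summed claudin level per kb, Cldn18 held 4.23% ± 1.53 (SD, n = 3) in CHIR, 7.36% ± 5.65 after 24 h and 18.9% ± 2.16 after 48 h of withdrawal. It held 15.7% ± 0.875 with Wnt, 17.4% ± 7.41 with the Fzd5 agonist and 10.2% ± 5.28 with the Fzd6 agonist. The share of Cldn3 was 73.8% ± 5.25 in CHIR and 65.2% ± 1.79 after 48 h. Per kb, the log2 ratio of Cldn18 to Cldn4, a sealing claudin, was 4.30, 4.69 and 4.39 in the 48 h libraries and 4.04, 4.11 and 3.12 with Wnt. In the CHIR libraries it was 2.01, 1.97 and −0.98. All 48 h and Wnt values lay above all CHIR values, and CHIR 3 and 24 h withdrawal 2, at −1.83, were the 2 libraries in which Cldn4 exceeded Cldn18.

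Markers of alveolar type 1 cells also differed between the groups, but not in the order of Cldn18 in every library. Summed over 10 markers they were at 4571 to 8572 CPM in CHIR, 7111 to 10630 CPM after 24 h and 9698 to 10595 CPM after 48 h of withdrawal. They were at 9396 to 9710 CPM with Wnt, 7752 to 10015 with the Fzd5 agonist and 8319 to 8772 with the Fzd6 agonist. All 10 were detected in each library but 24 h withdrawal 2, where Cav1 and Rtkn2 had no counts. Hopx, a homeodomain gene of alveolar type 1 cells, was at 37.8 to 66.6 CPM in CHIR and 220.4 to 266 CPM after 48 h. Ager, a defining gene of these cells that encodes the RAGE receptor, was at 428 to 1013 CPM in CHIR and 2541 to 2828 CPM after 48 h. Within the Fzd5 agonist group the library with the highest Cldn18, at 1827 CPM, also had the highest Ager (2961 CPM) and Hopx (228 CPM). Within CHIR the order was the opposite. CHIR 3 had the highest type 1 sum (8572 CPM), Ager (1013 CPM) and Hopx (66.6 CPM) of the group and the lowest Cldn18 (146 CPM), and CHIR 2 had the lowest sum (4571 CPM), Ager (428 CPM) and Hopx (37.8 CPM) and the highest Cldn18 (421 CPM). Fzd6 agonist 1 had the highest sum of its group (8772 CPM) with the lowest Cldn18 (209 CPM), Ager (1099 CPM) and Hopx (51.3 CPM). 24 h withdrawal 2 had the highest Ager of all libraries (3840.1 CPM) and the lowest Cldn18 (54.5 CPM). The part of alveolar type 1 cells in the Cldn18 differences was not tested. Axin2, a common target of Wnt signalling, was at 1.55 to 9.43 CPM in CHIR and 0.167 to 0.771 CPM after 48 h. With Wnt it was at 0.384, 0.373 and 0.238 CPM, within the range after 48 h. With the Fzd5 agonist, where Axin2 was at 2.88 to 4.94 CPM, Cldn18 was at 879.9 CPM or above, so the libraries do not place these 2 genes in opposite order throughout.

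**Figure D3:**
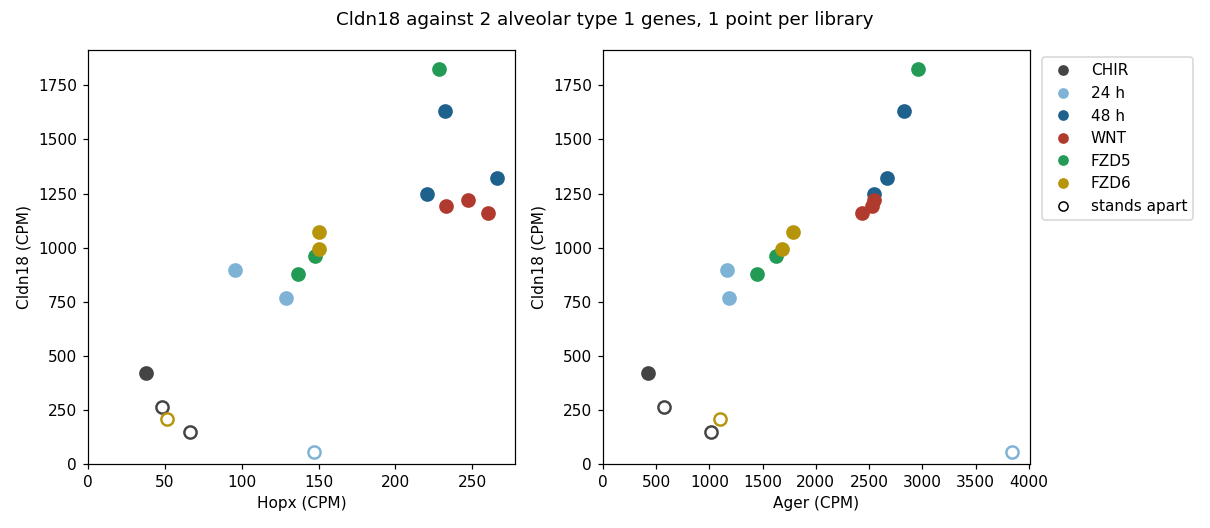
Cldn18 in CPM (vertical axis) against Ager and Hopx in CPM (horizontal axes, linear), with 1 point per library coloured by group and open points for the 4 libraries that stand apart. CHIR libraries lie at the lower left with Cldn18 at most at 421 CPM, and 24 h withdrawal 2 lies alone with Ager at 3840.1 CPM and Cldn18 at 54.5 CPM.

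Cldn8, a sealing claudin studied mainly in the kidney and gut, ran opposite to Cldn18 between CHIR and withdrawal. It stood at 15.0, 12.1 and 12.1 CPM in CHIR, at 5.93, 0 and 6.31 CPM after 24 h and at 4.62, 6.58 and 5.74 CPM after 48 h of withdrawal. With Wnt it stood at 4.63, 4.67 and 3.96 CPM. With the Fzd5 agonist it stood at 11.8, 7.58 and 7.60 CPM and with the Fzd6 agonist at 7.92, 9.81 and 8.62 CPM. The CHIR libraries lay above those of every other group without overlap. All Fzd5 and Fzd6 agonist libraries lay above all Wnt and 48 h withdrawal libraries, also with Fzd6 agonist 1 included. The 0 in 24 h withdrawal 2 allows up to 0.0952 CPM on its total gene count, without the TMM factor used for the other values.

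Means were 13.1 ± 1.68 CPM (SD, n = 3) in CHIR, 5.65 ± 0.988 after 48 h, 4.42 ± 0.402 with Wnt, 9.01 ± 2.45 with the Fzd5 agonist and 8.78 ± 0.955 with the Fzd6 agonist. Over all 18 libraries edgeR called no Cldn8 difference. For 48 h withdrawal against CHIR its log2 fold change was −1.21 (SE 0.84, edgeR adjusted p 0.521). Without 24 h withdrawal 2, the library at 0, this was −1.21 (SE 0.20, edgeR adjusted p 0.00215), and Wnt against CHIR gave −1.56 (SE 0.20, edgeR adjusted p 0.00101). DESeq2 on the 18 did not call Cldn8 either. Limma voom on the 18 called it for Wnt against CHIR (adjusted p 0.0210) but not for 48 h against CHIR (0.0653). It also called the Fzd5 and Fzd6 agonists against 48 h (limma voom adjusted p 0.0390 and 0.00768) and against Wnt (0.00326 and 0.000713). Over the 14 libraries Cldn8 was lower than in CHIR after 24 h (log2 fold change −0.97, SE 0.26, edgeR adjusted p 0.0452), after 48 h (−1.08, SE 0.24, edgeR adjusted p 0.00295) and with Wnt (−1.42, SE 0.24, edgeR adjusted p 0.000378). The call after 24 h was kept in only 4 of 13 omissions of a library, with an adjusted p of up to 0.182. The other calls against CHIR were kept in all 13. The Fzd5 and Fzd6 agonist groups were not called against CHIR, at −0.40 (SE 0.24, edgeR adjusted p 0.329) and −0.37 (SE 0.26, edgeR adjusted p 0.456).

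Between ligands, Cldn8 was higher with the Fzd5 agonist than with Wnt by a log2 fold change of 1.02 (SE 0.18, edgeR adjusted p 0.00136) over the 14 libraries, and all 13 omissions kept this call. These groups hold none of the 4 libraries that stand apart, and a fit of their 6 libraries alone gave 1.02 (SE 0.20, edgeR adjusted p 0.0118). Over the 17 libraries without 24 h withdrawal 2 it was 1.02 (SE 0.20) but not called, at an edgeR adjusted p of 0.0836, where the Fzd6 agonist against Wnt gave 0.99 (SE 0.20, edgeR adjusted p 0.0699). The Fzd6 agonist exceeded Wnt by 1.05 (SE 0.20, edgeR adjusted p 0.00289), a call lost without Fzd6 agonist 2 (0.0518). Against 48 h withdrawal the log2 fold change was 0.69 (SE 0.18, edgeR adjusted p 0.0175) with the Fzd5 agonist. That call was lost without 48 h withdrawal 1, 48 h withdrawal 3 or Fzd5 agonist 1, with an adjusted p of up to 0.0876, and in the fit of the 6 libraries alone (0.67, SE 0.21, edgeR adjusted p 0.0674). With the Fzd6 agonist it was 0.72 (SE 0.20, edgeR adjusted p 0.0278), lost without 48 h withdrawal 1 or 3 or Fzd6 agonist 2 or 3 (up to 0.211). The 2 agonists differed in Cldn8 by −0.03 (SE 0.20) over the 14 libraries, and Wnt differed from 48 h withdrawal by −0.33 (SE 0.18, edgeR adjusted p 0.681).

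The counts of members stand against the counts over all genes as follows. For 48 h withdrawal against CHIR, 0 of 10 members and 2.59% of all genes were called by edgeR over the 18 libraries, and 3 of 10 members (Cldn18 higher, Cldn7 and Cldn8 lower) and 27.5% of all genes over the 14. Libraries did not overlap for 3 of 10 members and for 29% of all genes. For Wnt against CHIR the shares of all genes were 1.92%, 26.6% and 27.1%, beside 0, 3 (Cldn2 and Cldn18 higher, Cldn8 lower) and 4 members. For the Fzd5 agonist against CHIR they were 0.00606%, 13.6% and 25.9%, beside 0, 1 (Cldn18) and 3 members. For the Fzd6 agonist against CHIR they were 0.00606%, 8.48% and 11.3%, beside 0, 0 and 1 member. For 24 h withdrawal against CHIR they were 0%, 4.5% and 9.29%, beside 0, 1 (Cldn8) and 1 member. For 48 h against 24 h of withdrawal they were 0.0485%, 18% and 23.5%, beside 0, 2 (Cldn4 and Cldn7) and 2 members. The members were thus called about as often as genes at large, with so few members that a share of theirs moves in steps of 1 in 10.

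The same held between the ligands and 48 h withdrawal. For the Fzd5 agonist the shares of all genes were 0%, 15.7% and 32.4%, beside 0, 1 (Cldn8) and 3 members. For the Fzd6 agonist they were 0.0121%, 12.1% and 25.7%, beside 0, 1 (Cldn8) and 4 members. For Wnt they were 0%, 0% and 16.2%, beside 0, 0 and 4 members. Against Wnt they were 0%, 16.7% and 32.7% with the Fzd5 agonist, beside 0, 1 (Cldn8) and 2 members, and 0%, 11.8% and 24.2% with the Fzd6 agonist, beside 0, 1 (Cldn8) and 5 members. Between the 2 agonists they were 0%, 0.00574% and 10.1%, beside no member in each case. With 24 h in place of 48 h of withdrawal as the baseline, no member was called in either fit, beside 0.0303% and 13.6% of all genes with Wnt, 0.00606% and 4.23% with the Fzd5 agonist and 0% and 0.677% with the Fzd6 agonist. The median log2 fold change of the 10 members for 48 h withdrawal against CHIR was −0.02 over the 18 libraries, beside −0.04 for all genes tested, and 0.26 over the 14, beside 0.01. For the Fzd5 agonist against 48 h withdrawal it was −0.09 and −0.08, beside 0.01 and 0.02.

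**Figure D4:**
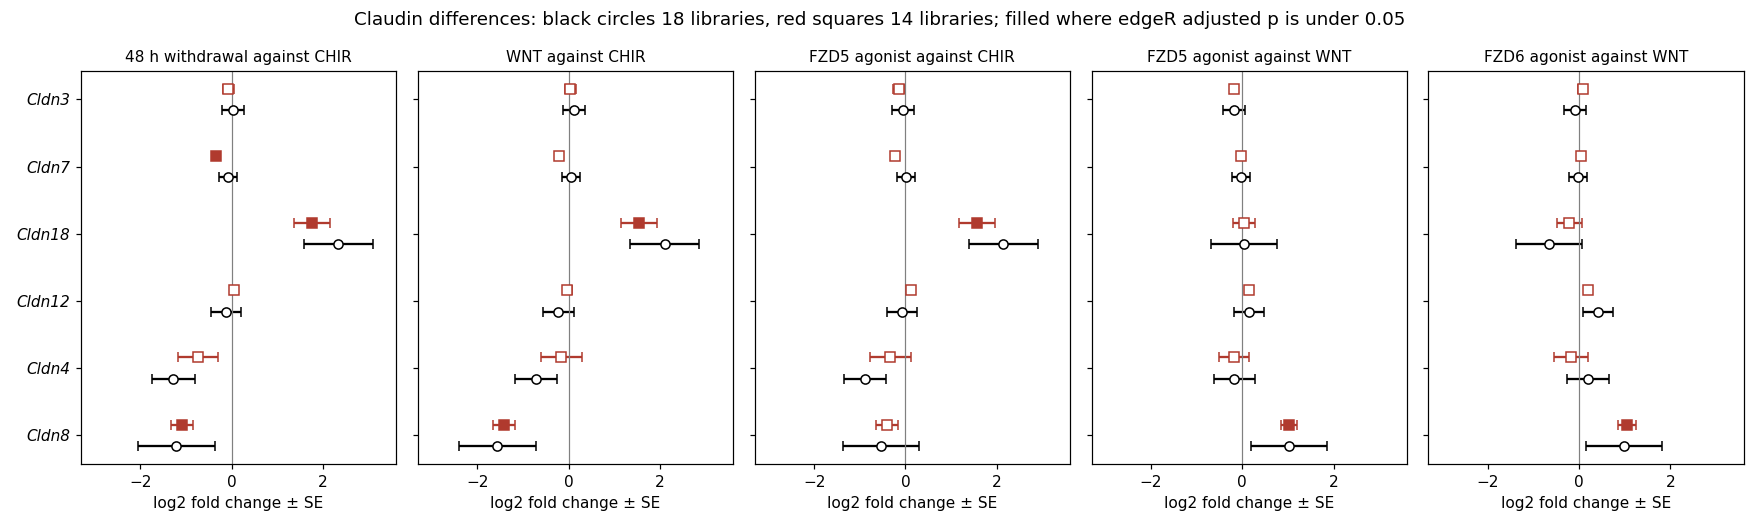
Log2 fold change ± SE (horizontal axes) of the 6 most abundant claudins in 5 comparisons, with black circles for the fit of 18 libraries, red squares for the fit of 14, and filled symbols where edgeR's adjusted p is under 0.05. Squares are filled, among others, for Cldn18 and Cldn8 against CHIR after 48 h and with Wnt, and black circles are open throughout.

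Cldn3, a sealing claudin and the member with the highest median transcript level per kb, was called in no comparison by edgeR in either fit. It stood at 1588, 1454 and 949 CPM in CHIR, 1727, 1164 and 1493 CPM after 24 h, and 1306, 1382 and 1399.6 CPM after 48 h of withdrawal. With Wnt it was at 1551, 1299 and 1504 CPM, with the Fzd5 agonist at 1128, 1396 and 1317 CPM, and with the Fzd6 agonist at 999.9, 1521 and 1552 CPM. The groups overlap, and CHIR 3, Fzd6 agonist 1 and 24 h withdrawal 2 were each the lowest of their group. For 48 h withdrawal against CHIR its log2 fold change was 0.03 (SE 0.24, edgeR adjusted p 0.969), and −0.07 (SE 0.12, edgeR adjusted p 0.727) over the 14 libraries.

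Cldn7, which is found along the lateral membrane of epithelia as well as in tight junctions, varied least among the 3 abundant members. It was at 329, 423 and 290.2 CPM in CHIR, 419, 259 and 375 CPM after 24 h and 333, 324 and 328 CPM after 48 h of withdrawal. With Wnt it was at 369, 341 and 368 CPM, with the Fzd5 agonist at 338, 348 and 365 CPM, and with the Fzd6 agonist at 321, 379 and 360.2 CPM. The 48 h values lay within the CHIR range. Over the 18 libraries the log2 fold change for 48 h withdrawal against CHIR was −0.08 (SE 0.20, edgeR adjusted p 0.889). Over the 14, against CHIR 2 alone, it was −0.35 (SE 0.09, edgeR adjusted p 0.00705), and against 24 h it was −0.27 (SE 0.07, edgeR adjusted p 0.0149), a call lost without 24 h withdrawal 1 (0.211). CHIR 2 was the highest of the 18 libraries in Cldn7, so the call against CHIR rests on that library, and with all 3 CHIR libraries but without 24 h withdrawal 2 it was −0.08 (SE 0.14, edgeR adjusted p 0.729). For 48 h against 24 h on the 18 libraries, limma voom called Cldn7 (limma voom adjusted p 0.0102), beside 19.9% of all genes. DESeq2 did not call it (DESeq2 adjusted p 0.824).

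Cldn4, a sealing claudin known to respond to lung injury, spread widely within groups. It was at 26.7, 43.7 and 117 CPM in CHIR and at 85.1, 79.1 and 40.0 CPM after 24 h. After 48 h it was at 27.4, 25.8 and 24.4 CPM, the lowest and tightest of the groups with a mean of 25.8 ± 1.5 CPM (SD, n = 3) against 68.1 ± 24.5 after 24 h. All 48 h libraries lay below all 24 h libraries. The log2 fold change between them was −1.40 (SE 0.47, edgeR adjusted p 0.193) over the 18 libraries and −1.27 (SE 0.36, edgeR adjusted p 0.0397) over the 14, a call kept in only 4 of 13 omissions (adjusted p up to 0.332). For 48 h against 24 h on the 18 libraries, limma voom called Cldn4 (limma voom adjusted p 0.0106), beside 19.9% of all genes. DESeq2 did not call it (DESeq2 adjusted p 0.0689). With Wnt Cldn4 was at 29.5, 27.4 and 57.4 CPM, with the Fzd5 agonist at 31.6, 33.4 and 36.5 CPM and with the Fzd6 agonist at 64.0, 36.0 and 31.8 CPM. All libraries of both agonists and of Wnt lay above the 48 h libraries. For Wnt the gap was narrow, with WNT 2 at 27.44 CPM and 48 h withdrawal 1 at 27.38 CPM. A fit of the 6 libraries gave the Fzd5 agonist against 48 h a log2 fold change of 0.38 (SE 0.09, edgeR adjusted p 0.0255). The fit of 14 gave 0.40 (SE 0.33) and did not call it. The highest Cldn4 values in the CHIR and Fzd6 agonist groups were in CHIR 3 and Fzd6 agonist 1, the libraries in which the basal cell genes Trp63 (50 and 309 counts) and Krt5 (64 and 46 counts) were found, with 0 counts of both in the other 16. 24 h withdrawal 1 and 2 were among these 16, with more Cldn4 (85.1 and 79.1 CPM) than Fzd6 agonist 1. The part of basal cells in the Cldn4 values was not tested.

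Cldn12, a claudin that lacks the PDZ-binding end of most others, was at 78.9, 90.7 and 135 CPM in CHIR, 90.1, 26.8 and 82.1 CPM after 24 h and 97.4, 88.3 and 92.0 CPM after 48 h of withdrawal. It was at 86.9, 86.5 and 87.5 CPM with Wnt, 93.6, 95.5 and 101 CPM with the Fzd5 agonist and 146, 102 and 98.3 CPM with the Fzd6 agonist. The highest values lay in CHIR 3 and Fzd6 agonist 1 and the lowest in 24 h withdrawal 2, and the other 15 lay between 78.9 and 102 CPM. edgeR called Cldn12 in no comparison in either fit, with a log2 fold change of −0.13 (SE 0.33, edgeR adjusted p 0.897) for 48 h withdrawal against CHIR. All Fzd5 and Fzd6 agonist libraries lay above all Wnt libraries, where 32.7% and 24.2% of all genes had no overlap. Limma voom on the 18 libraries called Cldn12 for the Fzd6 agonist against Wnt (limma voom adjusted p 0.0449), beside 22.3% of all genes.

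The low claudins had at most 85 counts in a library, and Cldn2 and Cldn6 had as few as 3 where they were detected. Cldn2, the pore-forming member, ranged from 0 to 2.00 CPM, with its highest value of 85 counts in CHIR 3 beside 3 counts in CHIR 2. In the Wnt group it was at 0.216, 1.20 and 1.55 CPM. Its call for Wnt against CHIR over the 14 libraries (edgeR adjusted p 0.0175) sets these against the 3 counts of CHIR 2 alone, while CHIR 3 exceeded all Wnt libraries. Limma voom on the 18 libraries called Cldn2 for the Fzd6 agonist against Wnt (limma voom adjusted p 0.0440), beside 22.3% of all genes. Cldn1, a sealing claudin best known in skin, was at 1.29, 1.21 and 1.32 CPM in CHIR and 1.55, 1.07 and 2.34 CPM after 48 h. Cldn23 was at 0.520, 0.772 and 0.728 CPM in CHIR and 0.802, 1.04 and 1.34 CPM after 48 h, where its libraries lay above those of CHIR without a call. Cldn6, a claudin of embryonic epithelia, reached 1.78 CPM (60 counts) in 48 h withdrawal 2, was at most 0.805 CPM elsewhere and had 0 counts in CHIR 3 and 24 h withdrawal 2. In 24 h withdrawal 2, Cldn1, Cldn2, Cldn6, Cldn8 and Cldn23 all had 0 counts, and this library also had the fewest genes with a count (16846) and the largest share of its library total outside gene counts (31.3%, against 11.7% to 15.5% in the others). Cldn1, Cldn6 and Cldn23 were called in no comparison by edgeR in either fit.

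Of 17 further claudins in the tables, Cldn10, an ion-channel claudin of kidney and gland epithelia, was the one to reach 1 CPM in a group mean, and the others stayed at or below 0.207 CPM in every library. Cldn5, the endothelial claudin that is also described in alveolar cells, was at most 0.0273 CPM. Cldn10 had its highest value in 24 h withdrawal 2 (9.41 CPM) and was at 0.198 to 4.91 CPM in the 14 libraries. In CHIR it was at 0.410, 0.198 and 6.27 CPM and with the Fzd6 agonist at 4.27, 0.736 and 0.415 CPM, so CHIR 3 and Fzd6 agonist 1 were far above their groups. Over the 18 libraries edgeR did not call it. Over the 14 it was at 3.84 ± 1.02 CPM (SD, n = 3) after 48 h, 2.36 ± 0.985 with Wnt, 0.887 ± 0.314 with the Fzd5 agonist and 0.576 ± 0.227 (n = 2) with the Fzd6 agonist, beside 0.198 in CHIR 2. It was lower with the Fzd5 agonist than after 48 h by a log2 fold change of −2.12 (SE 0.35, edgeR adjusted p 0.000862) and with the Fzd6 agonist by −2.73 (SE 0.43, edgeR adjusted p 0.000627), where Cldn8 was higher. Over the 18 libraries these were −2.11 (SE 1.16) and −1.09 (SE 1.12), and the Fzd5 agonist against CHIR turned from 2.16 (SE 0.68) over the 14 to −1.37 (SE 1.14).

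Of a list of 38 other genes of the tight junction, such as those for scaffolds, polarity proteins and partner membrane proteins, 36 were tested. For 48 h withdrawal against CHIR, edgeR over the 18 libraries called 1 higher and 1 lower, beside 2.59% of all genes, with a median log2 fold change of 0.35 over the list beside −0.04 over all genes. Magi3, a scaffold, rose from 64.4 ± 26.5 to 218 ± 8.36 CPM (SD, n = 3), a log2 fold change of 1.76 (SE 0.33, edgeR adjusted p 0.0121). Ybx3, a junction-associated Y-box protein also called ZONAB, fell from 330.4 ± 12.0 to 123 ± 1.94 CPM, by −1.42 (SE 0.23, edgeR adjusted p 0.00762). Over the 14 libraries 11 were higher and 5 lower, beside 27.5% of all genes, with medians of 0.15 and 0.01. For the Fzd5 agonist against 48 h withdrawal none of the 36 was called over the 18 libraries, and 10 higher and 3 lower over the 14, beside 15.7% of all genes. The smallest p belonged to the angiomotin-like gene Amotl2 (log2 fold change 0.76, SE 0.07), the ZO-1 gene Tjp1 (0.70, SE 0.09) and Ybx3 (0.41, SE 0.06). For the Fzd6 agonist none and then 6 higher and 3 lower were called, beside 12.1% of all genes over the 14, led by Amotl2 (0.73, SE 0.07), Ybx3 (0.48, SE 0.06) and the polarity gene Pard6g (1.05, SE 0.15). For Wnt against 48 h withdrawal neither fit called any of the 36. The 3 ligand comparisons share the 48 h libraries.

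The genes with the profile most like a called claudin were found over the 6 group means of the 14 libraries, by the mean absolute difference of log2 CPM after each profile was centred. Since edgeR called no member over the 18 libraries, its 14-library calls were used for this, a choice made after the values were seen. Cldn18 was nearest to Zkscan14 (0.0529), Gde1 (0.0584) and Ypel3 (0.0593). Cldn8 was nearest to Wdhd1 (0.0709), Wdr62 (0.0808) and Tcof1 (0.0814). Cldn7 was nearest to Purb (0.0126), Ddx39b (0.0170) and Dnaja3 (0.0189), and Cldn4 to Nabp1 (0.0893), Slc16a6 (0.0916) and Ipo7 (0.0959).

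On GRCm38, in the GENCODE M21 annotation, the genes lie as follows. Cldn18 (ENSMUSG00000032473) spans 99689461 to 99717267 on the minus strand of chromosome 9, within which the antisense gene Gm16004 shares no exon with it. Cldn3 (ENSMUSG00000070473) spans 134986214 to 134987472 on the plus strand of chromosome 5, and Cldn4 (ENSMUSG00000047501) 134945119 to 134946934 on the minus strand of the same chromosome. Cldn12 (ENSMUSG00000046798) spans 5489537 to 5514958 on the minus strand of chromosome 5. Cldn7 (ENSMUSG00000018569) spans 69964779 to 69967885 on the plus strand of chromosome 11. Cldn1 (ENSMUSG00000022512) and Cldn8 (ENSMUSG00000050520) span 26356642 to 26371841 and 88560828 to 88563183, both on the minus strand of chromosome 16. Cldn2 (ENSMUSG00000047230) spans 139800828 to 139811386 on the plus strand of chromosome X. Cldn6 (ENSMUSG00000023906) spans 23679249 to 23682446 on the plus strand of chromosome 17. Cldn23 (ENSMUSG00000055976) spans 35824712 to 35826559 on the minus strand of chromosome 8. Counts are over all exons of a gene.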

How the data were processed

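RNA of lung alveolar type 2 cells was made into libraries with a TruSeq Stranded Total RNA kit, per the labels' protocols. The deposited tables give, for each library and gene, a count of reads, a length and an RPKM value. The deposited counts are whole and not normalised. The deposited RPKM values equal the count per kb of length and per unit of a library total. Only that total was taken from them. Alignment was with GSNAP to GRCm38, per the submitters' processing notes. For the versions, annotation, counter and strand setting the entry is: not given in the sources used here. Hence antisense and overlapping genes could not be told apart.

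Of 52636 identifiers, 52489 (99.7%) had a symbol in GENCODE M21. Libraries were grouped by treatment label. Genes were filtered with filterByExpr by group (16497 tested, 36139 removed), normalised with TMM factors, and compared by the robust quasi-likelihood test of edgeR 4.0.16 in R 4.3.3, in 1 fit of 18 libraries without covariates. P-values were Benjamini-Hochberg adjusted over all genes of a comparison, with a threshold of 0.05, and SE is the log2 fold change over the square root of F. CPM are on TMM-scaled library sizes. The fit of 14 libraries (17433 genes tested) leaves out those with a median correlation under 0.96. The test was checked on data simulated for 48 h withdrawal against CHIR. These had the same setting of spread for all genes and no library that stood apart. The check therefore does not cover the effect of such a library. Alternatives were DESeq2 1.42.0, limma 3.58.1 voom with quality weights, RLE size factors, other filters, fits of only the groups compared, a replicate block, single libraries left out, and 24 h withdrawal as the baseline of the ligands. The members, the gene lists, the comparisons and the fit of 14 were chosen with earlier results of these data known.

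All members were described. Up to 3 genes of the tight junction list with the smallest p among those called, further claudins with a group mean of at least 1 CPM, and the 3 genes nearest in profile to each called claudin whose average log2 CPM was 2 or more were named. Promoter windows came from RefSeq (GRCm38.p6). Whether replicate numbers pair the libraries is not settled. Over 45 pairs of like number, deviations from the group means correlated at −0.521 to 0.466, and 4 pairs were over 0.1. The check includes the 4 libraries that stand apart and cannot exclude a pairing. A floor of 3 counts covers counting error alone.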

Additional observations from a re-analysis of the deposited data

How the results depend on the processing

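Over the 18 libraries edgeR called none of the 10 claudins in any of the 12 comparisons, and the same count of 0 was given by RLE size factors, by no filter, by a filter of 1 CPM, by leaving out any of the 18 libraries other than 24 h withdrawal 2, and with 24 h withdrawal as the baseline of the 3 ligands. With the replicate number as a block the count was also 0, and 5 of 18 libraries correlated best with a library of their own number. DESeq2 called 1 claudin against CHIR after 48 h, 1 with Wnt and 1 with the Fzd5 agonist. Limma voom with quality weights called 1 for 48 h against CHIR, 2 for Wnt against CHIR, 2 for 48 h against 24 h, 1 each for the Fzd5 and Fzd6 agonists against 48 h, 1 for the Fzd5 agonist against Wnt and 3 for the Fzd6 agonist against Wnt. Fits of only the groups compared called 1 for Wnt against CHIR, 1 for the Fzd5 agonist against 48 h and 1 for the Fzd5 agonist against Wnt. Without the 4 libraries that stand apart, 3 were called for 48 h against CHIR, 3 for Wnt against CHIR, 2 for 48 h against 24 h, and 1 each for 24 h against CHIR, the Fzd5 agonist against CHIR, either agonist against 48 h and either agonist against Wnt. Without 24 h withdrawal 2 alone 2 were called for 48 h against CHIR, 2 for Wnt against CHIR and 1 for the Fzd5 agonist against CHIR. Leaving out single libraries, from the 18 or from the 14, gave 0 to 4 for 48 h against CHIR, 0 to 3 for Wnt against CHIR and for 48 h against 24 h, 0 to 2 for 24 h against CHIR, the Fzd5 agonist against CHIR, either agonist against Wnt and the Fzd6 agonist against 48 h, and 0 to 1 for the Fzd5 agonist against 48 h and the Fzd6 agonist against CHIR. The omissions from the 14 were added after the data were seen. Of 3106 comparisons of a single claudin's value with an alternative, 155 differed in sign from an uncalled main value and 0 of these were past the threshold. The causes were not tested. Calls over all genes also moved: for 48 h against CHIR they were 427 with edgeR, 1275 with DESeq2, 1104 with limma voom and 4791 over the 14 libraries. For claudins at a few counts, depth limits what could be seen, and with 3 libraries a group, or 1 CHIR library in the fit of 14, so does their number.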
